A study of Mus musculus with 8 samples.

Results

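The kidney circular RNA (circRNA) tables list 6315 circRNAs, of which 1 is assigned to the host gene Nrg1 (mmu_circ_0014776) and 1 to the host gene Osmr (mmu_circ_0005739). These 2 rows were taken by their gene name, and both passed the filter on low counts that 1471 circRNAs passed. The hosts had been selected on measured values, namely counts of 0 in every control kidney and above 0 in obstructed kidneys, so their differences from control are given as a description, with no test.

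The 8 libraries were made from total RNA of kidneys of C57BL/6L mice aged 8 to 10 weeks. The injured groups were 3 libraries taken at day 5 of unilateral ureteral obstruction (UUO), in which the ureter of a kidney is closed, and 2 libraries labelled acute-chronic (AC), also at day 5, for which the design text speaks of ischaemia/reperfusion. The 3 control libraries are titled wild type, and the design text calls the controls sham-operated. No allele, transgene or drug is named for any group. Whether the libraries stem from different animals is not stated in the labels, so spreads and p-values refer to libraries and may be technical. In bulk tissue, more or fewer cells of a type and more or less RNA per cell cannot be told apart.

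A circRNA is a closed loop formed when the end of an exon is joined back to an upstream exon of the same transcript. Nrg1 encodes neuregulin 1, a growth factor of the EGF family that binds the receptors ERBB3 and ERBB4 and signals through the MAP kinase and PI3 kinase routes. Osmr encodes the oncostatin M receptor subunit, which pairs with the shared chain gp130 (Il6st) and activates JAK kinases and STAT3; oncostatin M is a cytokine of the interleukin-6 family made largely by leukocytes. The values below are for circles, not for the linear messages or proteins of these genes, which were not analysed here.

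Each host had a single row, so no second circle of the same gene was at hand for comparison. Of the 2841 host genes in the table, 1499 had 1 row (52.8%), and of the 1016 hosts with a tested circRNA, 332 had 1 row (32.7%). The column of the table headed as experimental evidence holds an identifier for 1084 rows (17.2%, and 38.1% of tested rows) and is blank for both the Nrg1 and the Osmr circle. The source transcripts listed are ENSMUST00000080782 for Nrg1 and ENSMUST00000022746 for Osmr. The exons that form each circle, and their bases, were not analysed here.

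The Nrg1 circle had counts of 23, 41 and 18 in UUO replicates 1 to 3. It had 24 counts in AC replicate 1, 0 in AC replicate 2, and 0 in each of the 3 control libraries. In CPM (counts scaled to a common library size, from the counts left after the filter with TMM factors) these were 584, 957 and 378 CPM in UUO, 565 and 0 CPM in AC, and 0 CPM in control. It was thus present in every UUO library and in 1 of the 2 AC libraries, with AC replicate 1 among the UUO values and AC replicate 2 at the control value. The mean was 640 ± 294 CPM in UUO (SD, n = 3), 283 ± 400 CPM in AC (SD, n = 2) and 0 CPM in control. With 3 counts over the group as the floor, which is worth 21.6 CPM over the 3 controls, the UUO mean was at least 29.6-fold higher than control. AC replicate 1 alone was at least 26.2-fold higher than control, and for AC replicate 2 no fold can be given.

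The Osmr circle had counts of 13, 12 and 18 in UUO replicates 1 to 3. It had 11 counts in AC replicate 1, 7 in AC replicate 2, and 0 in each of the 3 control libraries. The corresponding levels were 330, 280 and 378 CPM in UUO, 259 and 204 CPM in AC, and 0 CPM in control. All 5 injured libraries held it, and the 3 UUO libraries lay above both AC libraries. Its mean was 329 ± 48.9 CPM in UUO (SD, n = 3), 232 ± 38.9 CPM in AC (SD, n = 2) and 0 CPM in control. Against the same floor its UUO mean exceeded control by at least 15.3-fold and its AC mean by at least 10.7-fold. Of all tested circRNAs, 13.3% had UUO libraries that all lay above the control libraries, and 15.4% had AC libraries that did so; since both circles were picked for this contrast, nothing is read from their place among these.

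**Figure D1:**
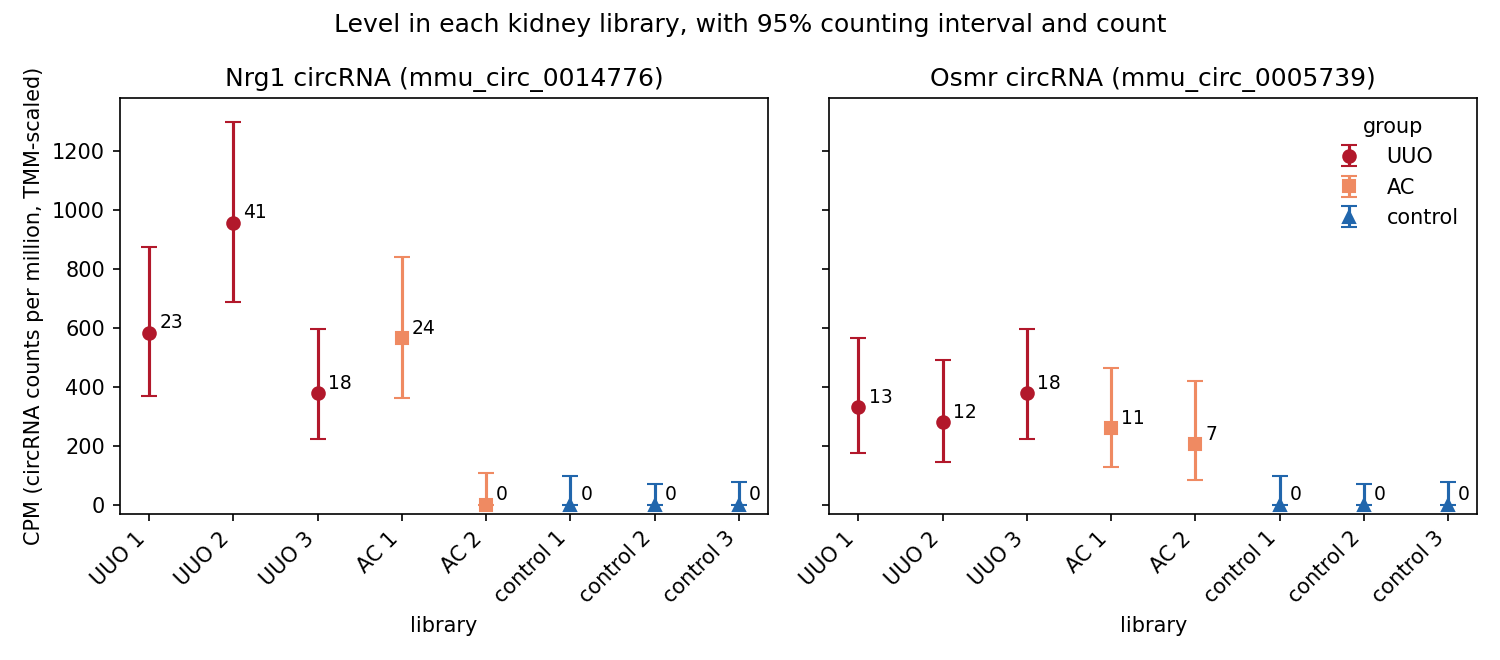
Level of the Nrg1 circRNA (left) and the Osmr circRNA (right) in each of the 8 libraries, in CPM on the vertical axis, with the count printed beside each point and bars for the exact 95% Poisson interval of that count. UUO and AC libraries stand left of the control libraries; Nrg1 is at 0 in AC replicate 2 and in the 3 controls, and Osmr at 0 in the 3 controls alone.

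The depth behind these values was between 40865 and 65145 circRNA counts per library, so 3 counts, the floor taken for a count of 0, were worth between 56.6 and 87.5 CPM. The two-sided exact intervals given next end somewhat above this floor for a count of 0. The exact 95% Poisson intervals of the Nrg1 circle ran from 687 to 1299 CPM in UUO replicate 2 and from 224 to 597 CPM in UUO replicate 3, so these replicates differed beyond counting error. Those of AC replicate 1 (362 to 841 CPM) and AC replicate 2 (0 to 108 CPM) did not overlap either. The intervals of the Osmr circle overlapped among all 5 injured libraries; the lowest ran from 82.1 to 421 CPM in AC replicate 2 and the highest from 224 to 597 CPM in UUO replicate 3. Each control interval ended at or below 98.1 CPM for both circles.

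The spread between UUO replicates rests on the same counts as the intervals above, so it is not a further contrast. The coefficient of variation over the 3 UUO libraries was 45.9% for Nrg1 and 14.8% for Osmr. The median over the 1462 tested circRNAs with any UUO count was 34.3%, with 66.7% of them below the Nrg1 value and 15.4% below the Osmr value. These circRNAs are of all abundances and the coefficient depends on the count. The shares therefore do not place either circle among circles of like count, and a steady level of Osmr is not read from them. The ratio of Nrg1 to Osmr counts within a library, which needs no scaling between libraries, was 1.77, 3.42 and 1 in UUO replicates 1 to 3, 2.18 in AC replicate 1 and 0 in AC replicate 2. The lengths of both circles are not in the tables, so the ratio compares libraries and not the abundance of the genes' circles.

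Among the circRNAs above 0 in each library, ordered by count and not by length, the Nrg1 circle lay above 87.3%, 93.1% and 80.7% in UUO replicates 1 to 3 and above 86.2% in AC replicate 1. The Osmr circle lay above 75.9%, 73.1% and 80.7% in UUO and above 69.1% and 60.96% in AC. The authors' deposited signal, a count divided by 1 constant per library, gave the same order of libraries for Osmr, and for Nrg1 the same order but for AC replicate 1, which was then just above UUO replicate 1. The Nrg1 circle was at 0.00228, 0.00410 and 0.00151 in UUO, 0.00235 and 0 in AC, and 0 in control. The Osmr circle was at 0.00129, 0.00120 and 0.00151 in UUO, 0.00108 and 0.000752 in AC, and 0 in control.

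The direct contrast of UUO with AC was not the one that singled out these circles, but it is not free of that selection. The hosts were selected for counts above 0 in UUO libraries, which can raise UUO over AC. The p-values and intervals below are therefore descriptive. For Osmr the log2 fold change of UUO over AC was 0.50 (standard error 0.92) with a 95% interval from -1.46 to 2.46, and edgeR gave an adjusted p of 0.991. For Nrg1 it was 1.12 (standard error 0.91) with an interval from -0.82 to 3.07 (edgeR adjusted p = 0.939). A difference between the injury models was therefore not detectable for either circle, and the intervals hold differences in both directions. The Nrg1 value rested on AC replicate 2: without that library the log2 fold change was 0.19, and without AC replicate 1 the AC count is 0 and the edgeR adjusted p was 0.287. The UUO mean was then at least 7.31-fold higher than AC replicate 2, with 3 counts in that library as the floor. The UUO libraries lay wholly above the AC libraries for Osmr, as they did for 13.2% of tested circRNAs, and overlapped for Nrg1. In this contrast 0 of 1471 circRNAs passed in edgeR (0%), with 82 (5.57%) at an unadjusted p under 0.05, and limma-voom called 0 and DESeq2 called 2.

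The disagreement between the AC libraries on Nrg1 was uncommon among circRNAs with at least its count. These include far more abundant circles, such as that of Erbb2ip with 298 counts in AC replicate 1, so the share at the count of Nrg1 itself is not given. Of 468 circRNAs with at least the 24 counts that Nrg1 had in AC replicate 1, 6 had 0 counts in AC replicate 2 (1.28%). Besides Nrg1 these were circles of Usp32, Mllt10, Clta, Arl8b and Senp6, named after their values were seen. In the other direction, 362 circRNAs had at least 24 counts in AC replicate 2, and 2 of them, of Hira and Sltm, had 0 in AC replicate 1 (0.552%). AC replicate 2 was the shallowest library, at 40865 counts beside 49147 in AC replicate 1, and the part of depth in its 0 was not tested.

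Counts of 0 in all 3 controls were common among rare circles and rare among tested ones. Of the 6315 rows, 1223 had 0 in the 3 controls, and ranked by their counts over the 5 injured libraries the Nrg1 circle held rank 1 with 106 counts and the Osmr circle held rank 3 with 61. The row between them, a circle of Sltm (mmu_circ_0001803), had all 90 of its counts in AC replicate 2. Of the 1223 rows, 47 were above 0 in all 3 UUO libraries and 12 in all 5 injured libraries. Osmr was one of these 12, and Nrg1, through AC replicate 2, was not.

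Among the 1471 tested circRNAs, 6 had 0 counts in the 3 controls. Besides Nrg1 and Osmr these were circles of Espl1, the protease separase that releases sister chromatids, Mtap1s, a microtubule-associated protein, Dennd1b, a Rab exchange factor, and Clasp2, a microtubule plus-end protein. The filter admits a circle with no control counts only where its injured counts are high, so the 6 had to differ from control. Of the other 9 rows above 0 in all 5 injured libraries, all below the filter, the highest was a circle of Met (mmu_circ_0013213), the receptor tyrosine kinase for hepatocyte growth factor. It had 4, 10 and 7 counts in UUO, 6 and 12 counts in AC, and 0 in the 3 controls. It was named after its values were seen.

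**Figure D2:**
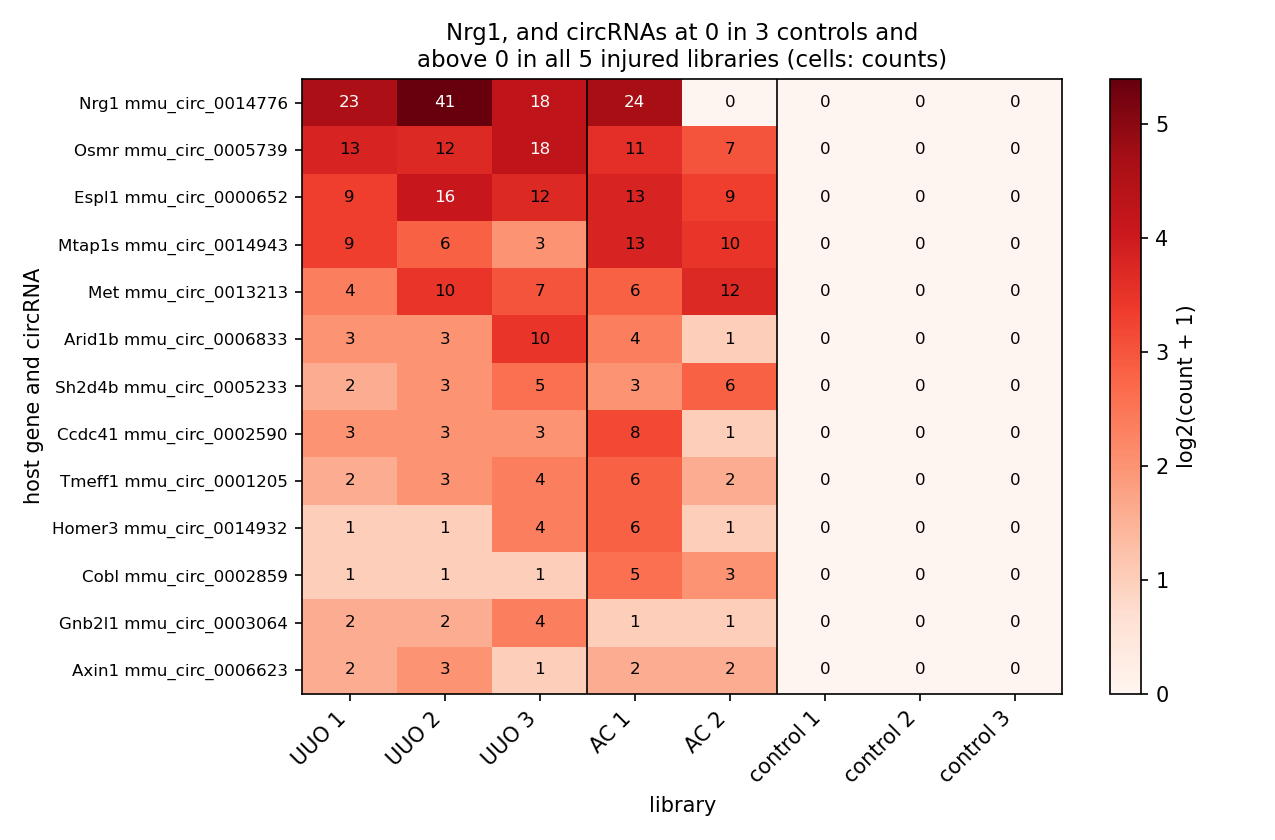
Counts per library (printed in the cells, coloured on a log2(count + 1) scale) of the Nrg1 circle and of the 12 circRNAs with 0 counts in 3 controls and counts above 0 in all 5 injured libraries. Nrg1, in the top row, has the most counts of those shown and is the one row with a 0 in an injured library, AC replicate 2.

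The circRNAs whose pattern was most like each circle were found by Pearson's r of log2 CPM over the 8 libraries. The points share their libraries and fall into injured and control clusters, so r is given as a description. For Osmr the closest were circles of Dcdc2a (mmu_circ_0004549, r = 0.99), a doublecortin-domain gene, Samd4 (mmu_circ_0000529, r = 0.98), which encodes an RNA-binding repressor of translation, Vav3 (mmu_circ_0010364, r = 0.98), a guanine nucleotide exchange factor, Espl1 (mmu_circ_0000652, r = 0.98) and Apbb2 (mmu_circ_0012733, r = 0.97), an adaptor that binds the amyloid precursor protein. In each, every one of the 5 injured libraries lay above all 3 controls, which the ranking by r with Osmr favours, so nothing is read from it. The Dcdc2a circle had 125, 151 and 170 counts in UUO, 97 and 85 counts in AC, and 5, 4 and 4 counts in control. The Vav3 circle had 35, 32 and 49 counts in UUO, 35 and 27 in AC, and 6, 12 and 13 in control.

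For Nrg1 the closest were circles of Smad4 (mmu_circ_0007496, r = 0.94), the shared SMAD of TGF-beta signalling, Sox5 (mmu_circ_0013172, r = 0.93), a transcription factor, Srbd1 (mmu_circ_0007072, r = 0.92), Pik3r3 (mmu_circ_0011074, r = 0.92), a regulatory subunit of PI3 kinase, and Usp54 (mmu_circ_0005106, r = 0.89). These share a lower value in AC replicate 2 than in AC replicate 1, which the ranking by r with Nrg1 favours, so nothing is read from it. The Smad4 circle had 10, 20 and 13 counts in UUO, 10 and 1 in AC, and 4, 3 and 4 in control, and the Srbd1 circle had 4, 16 and 6 counts in UUO, 17 and 0 in AC, and 1, 1 and 0 in control. Ranking by Spearman's rank correlation, with the controls tied at 0, kept 0 of the 5 for Osmr and 1 of the 5 for Nrg1.

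**Figure D3:**
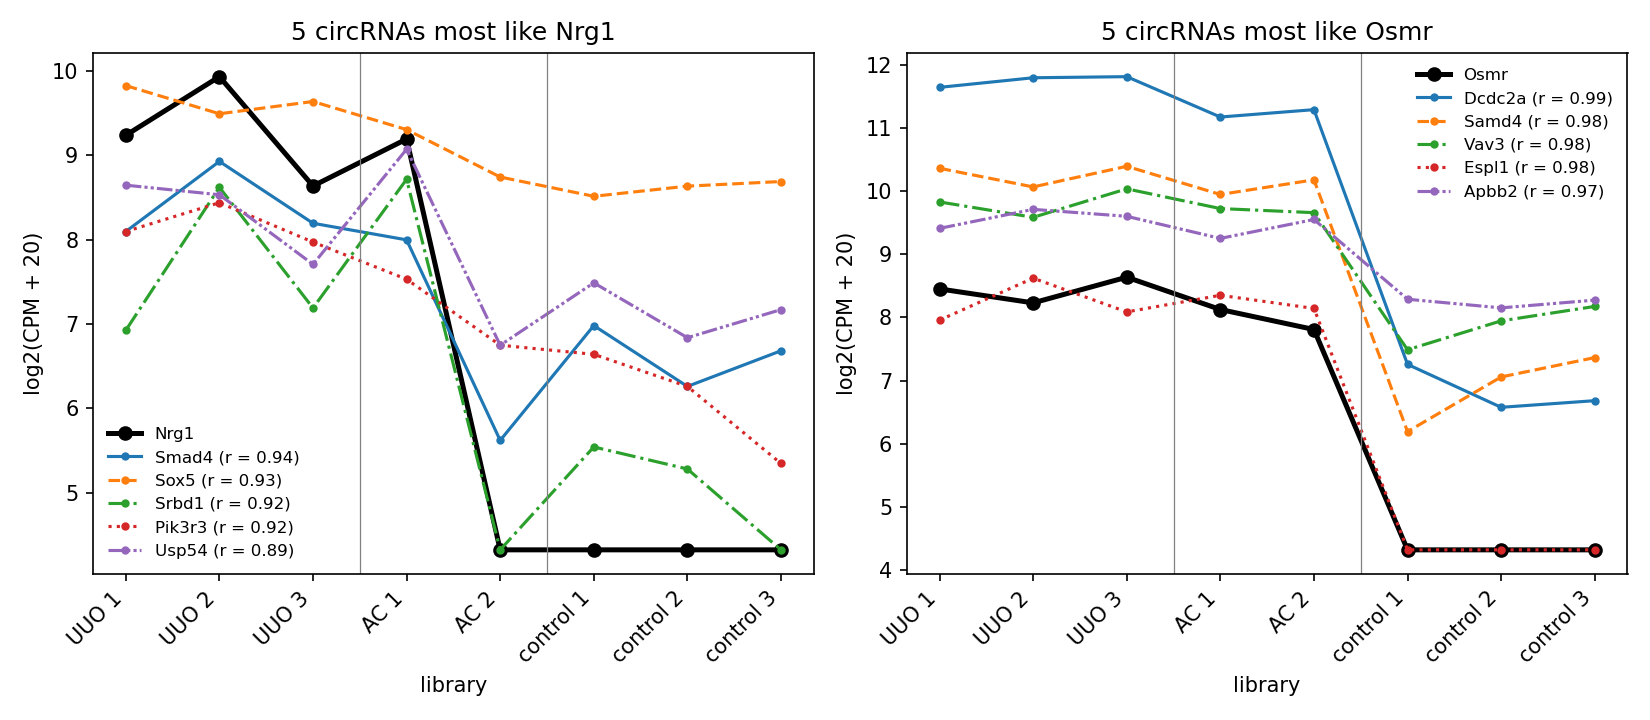
Levels on a log2(CPM + 20) scale by library for the Nrg1 circle (left, black) and the Osmr circle (right, black) with the 5 circRNAs most like each, Pearson's r in the legend; lines only link the libraries of 1 circle. UUO, AC and control libraries are parted by grey lines. The circles most like Nrg1 dip in AC replicate 2 while those most like Osmr stay high in all 5 injured libraries, as the ranking by r favours.

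Circles of the partners of both proteins were sparse. None of the 10 other ERBB ligands on the list, among them Egf, Areg, Hbegf and Nrg2, had a row, and of 4 ERBB receptors Egfr and Erbb4 had rows. Erbb4, the receptor tyrosine kinase that binds neuregulins directly, had 5 circles, with summed counts of 13, 48 and 26 in UUO, 19 and 11 in AC, and 8, 12 and 9 in control. In CPM the sum was 330, 1121 and 546 in UUO, 448 and 321 in AC, and 213, 226 and 186 in control. Every UUO library and both AC libraries were thus above every control library on this scale, as they were for the 13.3% and 15.4% of single tested circRNAs given above. With the authors' signal, control replicate 2 (0.00138) lay above UUO replicate 1 (0.00129) and AC replicate 2 (0.00118), so the groups overlapped on that scale. UUO replicate 2 had the highest value of both Nrg1 and Erbb4 circles. UUO replicates 1 and 3 were in opposite order, at 584 and 378 CPM for Nrg1 and 330 and 546 CPM for Erbb4. The share of circRNAs highest in UUO replicate 2 was not computed, so no shared pattern is read from this.

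Of the 5 Erbb4 circles 2 were tested, and neither passed. The first (mmu_circ_0000050) had 379 ± 258 CPM in UUO (SD, n = 3), 214 ± 96.8 CPM in AC (SD, n = 2) and 111 ± 98.7 CPM in control (SD, n = 3). UUO against control gave a log2 fold change of 1.69 (standard error 0.82), where edgeR gave an adjusted p of 0.338, and AC against control gave 0.89, where the edgeR adjusted p was 0.750. The second (mmu_circ_0008917) had 265 ± 160 CPM in UUO (SD, n = 3), 158 ± 23.8 CPM in AC (SD, n = 2) and 73.2 ± 75.6 CPM in control (SD, n = 3). Its log2 fold changes were 1.89 with a standard error of 1.03 in UUO and 1.14 in AC, with edgeR adjusted p of 0.401 and 0.734. The Egfr circle (mmu_circ_0002861), of the EGF receptor and below the filter, had 4, 3 and 8 counts in UUO, 5 and 7 in AC, and 1, 10 and 9 in control, with overlapping groups.

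On the oncostatin M side, none of 8 ligands of the interleukin-6 family, Osm included, had a row. Of 6 receptor genes besides Osmr, Il6st and Il6ra had 1 row each, both below the filter. The circle of Il6st (mmu_circ_0004459), which encodes the gp130 chain that pairs with OSMR, had 3, 14 and 6 counts in UUO, 0 and 0 counts in AC, and 3, 5 and 7 counts in control. It was therefore found in UUO and control libraries that overlapped, and in neither AC library. Of tested circRNAs 0.272% had 0 in both AC libraries and counts in every control library. That share does not cover circles below the filter, and none was computed for circles as rare as this one. With so few counts, nothing is read from its 0 counts in AC. Il6ra (mmu_circ_0010906), the receptor chain for interleukin-6, never exceeded 1 count. Of 11 JAK and STAT genes, Stat2 had a row, with 2 counts in AC replicate 1 and 0 elsewhere.

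The wider ERBB list held 61 gene symbols, Nrg1 left out, with Erbb2ip and Erbin standing for the same gene. It had 79 circles of 26 hosts, of which 13 circles of 11 hosts were tested. In UUO against control the log2 fold change was positive for 8 and negative for 5, and the median was 0.21 beside 0.016 over all tested circRNAs. In AC against control 9 were positive and 4 negative, with a median of 0.16 beside -0.015 over all. In edgeR 0 of the 13 passed in either direction in UUO, where 4.35% of all tested circRNAs passed, and 0 passed in AC, where 3.33% did. At an unadjusted p under 0.05 there were 0 in UUO, where 15.5% of all tested circRNAs were, and 2 in AC, where 14.1% were. The 2 were circles of Adam10 and Pak1, a share near that of all circRNAs, and limma-voom and DESeq2 also called 0 in both.

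The circles of that list described next were named after their values were seen. A circle of Adam10 (mmu_circ_0015847), a sheddase that releases growth factors from the cell surface, had 1.46 with a standard error of 0.49 on the log2 scale in AC against control (edgeR adjusted p = 0.152) and 0.85 in UUO. A circle of Pak1 (mmu_circ_0001599), a kinase activated by small GTPases, had -1.08 with a standard error of 0.45 in AC (edgeR adjusted p = 0.272) and -0.0063 in UUO. The Map2k1 circle (mmu_circ_0001794), of a MAP kinase kinase, had 0.81 in UUO and 0.90 in AC, with edgeR adjusted p of 0.393 and 0.427. The circle of Gab1 (mmu_circ_0001700), a docking protein of receptor tyrosine kinases, had 0.71 in UUO and 0.51 in AC and did not pass either. The most abundant circle by count, of Erbb2ip (mmu_circ_0000495), which binds ERBB2, had 5786 ± 513 CPM in UUO (SD, n = 3), 7011 ± 13.9 CPM in AC (SD, n = 2) and 6304 ± 838 CPM in control (SD, n = 3), with log2 fold changes of -0.12 and 0.15.

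The list of 50 interleukin-6 family and JAK-STAT genes, Osmr left out, had 26 circles of 10 hosts, of which 9 circles of 5 hosts were tested. These came from Pias1 and Pias2, inhibitors of STAT proteins, Stam, an adaptor of cytokine receptor sorting, and the coactivators Crebbp and Ep300. In UUO 5 were positive and 4 negative, with a median of 0.29 beside 0.016 over all tested circRNAs, and in AC 5 were positive and 4 negative, with a median of 0.016 beside -0.015. In edgeR 0 of the 9 passed in UUO or AC, and limma-voom and DESeq2 called 0. At an unadjusted p under 0.05 there were 0 in UUO and 1 in AC, beside the 15.5% and 14.1% of all tested circRNAs. The 1, named after its value was seen, was a circle of Ep300 (mmu_circ_0000626), at 545 ± 137 CPM in AC (SD, n = 2) and 1109 ± 344 CPM in control (SD, n = 3), where the log2 fold change was -1.04 (standard error 0.41, edgeR adjusted p = 0.244). UUO and AC were compared with the same 3 controls, so their values for both lists are not separate evidence.

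**Figure D4:**
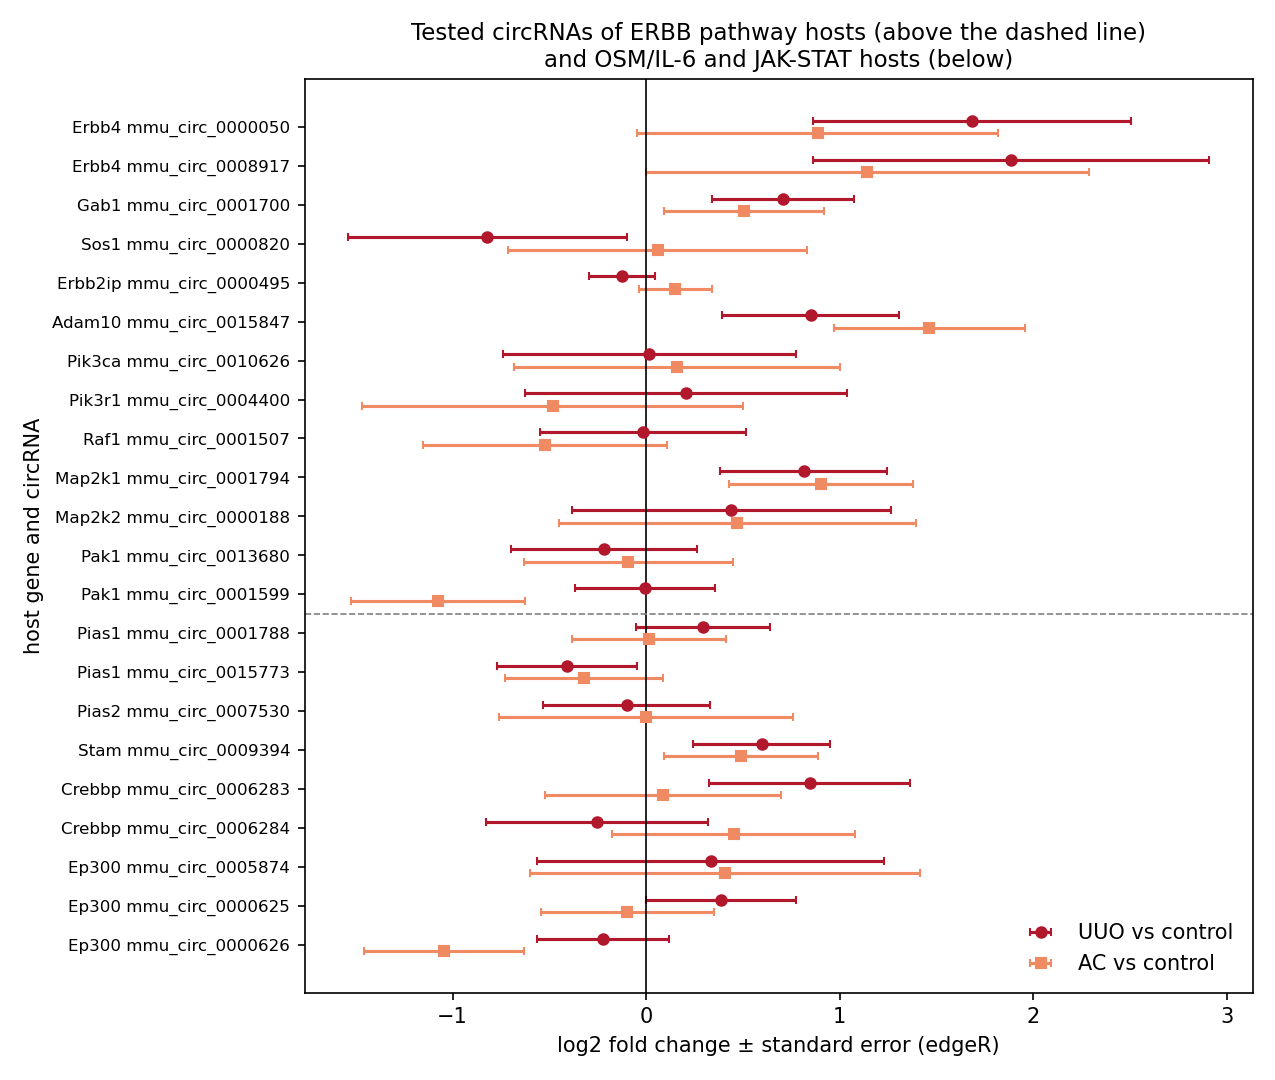
Log2 fold change with its standard error (edgeR, horizontal axis) for the 13 tested circRNAs of ERBB pathway hosts and the 9 of interleukin-6 family and JAK-STAT hosts, in UUO against control (circles) and AC against control (squares). The values lie on both sides of 0, and 0 of the 22 passed the threshold.

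Few cell-type markers have a circle in these tables. Of 18 kidney epithelial markers, Lrp2 and Slc4a4 had rows, with a sum of 987 to 1386 CPM of the library totals in UUO, 1101 to 1343 in AC and 1387 to 2794 in control. Of 11 markers of injured tubule, Dcdc2a had a row, at 2665 to 2962 CPM in UUO, 1974 to 2080 in AC and 61.4 to 114 in control. The epithelial sums of UUO and control nearly met, at 1386 and 1387 CPM, a gap smaller than the worth of a single count, so no separation is read from them. The Dcdc2a circle was higher in every injured library than in every control library. Of all tested circRNAs, 13.3% did so in UUO and 15.4% in AC. The Dcdc2a circle is a single marker and was the circle most like Osmr above, so its level in AC replicate 2 is not read further. The part of either sum in the values of the Nrg1 and Osmr circles was not tested. Of 10 leukocyte and 10 fibroblast markers, among them Ptprc, Adgre1, Pdgfrb and Col1a1, 0 had a row; of 8 endothelial markers Flt1 and Tek had rows, at 21.3 to 173 CPM in UUO, 0 to 220 in AC and 76.8 to 114 in control. Of 7 nerve and Schwann cell markers Ncam1 had a row, with 1 count in AC replicate 1 and 0 in the other libraries.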

How the data were processed

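CircRNA levels were measured in 8 mouse kidney libraries (3 UUO, 2 AC, 3 control), grouped by their titles. The authors deposited whole-number counts per circRNA, without normalization, and a signal table whose values equal each count over 1 constant per library (whole within 0.01 when multiplied back for 100% of values). HISAT2, StringTie and build mm9 are named per the submitters' processing notes, without role or version; for the caller of circles and the counting rule, the sources used here name nothing.

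Counts were tested with edgeR 4.0.16 in R 4.3.3 (quasi-likelihood, 3 groups in 1 fit, TMM; filter: minimum count 10, minimum total 15), adjusted by Benjamini-Hochberg over the 1471 circRNAs kept, with a threshold of 0.05. Standard errors were derived from the log2 fold change and the F statistic. DESeq2 1.42.0, limma 3.58.1 (voom), other scalings and filters, and leaving out each library were alternatives. The fit was tested on simulated data. Log2 CPM used a prior count of 2. Intervals and floors (3 counts) cover counting error only, since reads without molecular identifiers are not independent molecules. The circles named are both hosts' rows, the 5 circles most like each, and the tested or listed rows of ligands and receptors; others are marked. Libraries of a group differed beyond counting noise (chi-square per degree of freedom 3.04 to 5.34), so none was counted as a duplicate. The members and the gene lists were chosen with earlier results of these data known. 1 gene of the ERBB list is not reported here and was left out of the list's counts and medians.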

Additional observations from a re-analysis of the deposited data

How the results depend on the processing

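Few counts limit these results: 1 count was worth 18.9 to 29.2 CPM, and the AC group had 2 libraries. Between the UUO and AC libraries, the log2 fold change of Osmr kept its sign and missed the threshold in 16 alternatives (0.36 to 0.68), and that of Nrg1 in 17 (0.19 to 2.43, leaving aside the setting without AC replicate 1, where AC is at 0); Osmr could not be fitted with a minimum count of 20. With the authors' constant per library as the scaling, the median of all tested circRNAs moved from 0.016 to -0.26 in UUO and from -0.015 to -0.34 in AC, and the bound for Osmr was 12.6-fold in UUO and 8.63-fold in AC. Leaving out 1 library, the Osmr bound ran from 9.36 to 16.5 in UUO and from 6.65 to 11.8 in AC, and the Nrg1 bound from 18.2 to 35.2 in UUO and from 8.17 to 25.7 in AC, with no bound without AC replicate 1; leaving out a control library raises the floor by construction. The 5 circles most like each were shared with a Spearman ranking in 0 cases for Osmr and 1 for Nrg1. No circle of either list passed under any alternative. The ERBB list's median was 0.014 in UUO and -0.10 in AC with the deposited constant, and 0.52 and 0.50 with limma-voom. In the same order it was 0.0029 and 0.22 with a minimum count of 20, and 0.41 and 0.42 with a replicate block. With the compared groups alone it was 0.044 in UUO and 0.18 in AC. It was 0.18 and 0.17 with DESeq2, 0.20 and 0.22 with library totals alone, and 0.19 and 0.10 with no filter. Without 1 library it ran from 0.0054 to 0.63 in UUO and from -0.098 to 0.26 in AC, lowest without UUO replicate 3 and without AC replicate 2. The interleukin-6 and JAK-STAT list's median moved to -0.0053 in UUO and -0.33 in AC with the constant and to 0 in UUO with no filter, and without 1 library it ran from -0.0074 to 0.38 in UUO and from -0.56 to 0.052 in AC. The medians with the constant stand beside -0.26 in UUO and -0.34 in AC for all tested circRNAs, since this scaling moves all circRNAs.

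Over all circRNAs, 64 passed in UUO against control (103 with DESeq2, 37 with the constant, 10 to 75 without 1 library: 26, 10 and 15 without UUO replicates 1, 2 and 3, 40 and 25 without control replicates 2 and 3). In AC against control 49 passed (29 with the constant, 14 with the compared groups alone, 11 to 38 without 1 library: 13 and 15 without AC replicates 1 and 2, 32 without UUO replicate 2, 11 without control replicate 3). With AC reduced to 1 library, its variation was taken to equal that of the other groups. In UUO against AC 0 passed (2 with DESeq2, 4 with no filter, 1 with the compared groups alone, 0 to 1 without 1 library, the 1 without AC replicate 1). With the constant the split in UUO was 11 higher and 26 lower, against 42 and 22 in the main setting, and in AC 7 and 22, against 28 and 21. Same-numbered libraries did not deviate together (r from -0.11 to 0.042 over 7 pairs). These pairs are few and share libraries, so they cannot show whether the numbers mark a batch or a pairing. With the number as a replicate block 12 passed in UUO and 5 in AC against control. Except where stated, the cause was not tested.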
